A study of Mus musculus with 15 samples.

Results

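The clustered protocadherins make up 58 of the 23412 genes counted in an RNA-seq experiment in mouse embryonic stem cells (mESCs). They were chosen by gene symbol alone, as Pcdh followed by a, b, ga, gb or gc and an isoform number or C-type number. They comprise 14 alpha, 22 beta and 22 gamma genes, and the gamma genes divide into 12 of type A, 7 of type B and 3 of type C. Another 13 protocadherin symbols in the count tables lie outside this rule.

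Clustered protocadherins are cell-surface adhesion proteins best known from neurons, where each cell expresses a small set of isoforms and uses it to tell its own branches from those of other cells. Each isoform has its own promoter, and promoter choice is known to depend on CTCF, on cohesin-mediated looping to distal enhancers and on DNA methylation laid down by Dnmt3b. Cohesin is a ring of SMC1A, SMC3 and RAD21 that carries either STAG1 or STAG2, so the gene family offers a view of how loss of each STAG protein, or of both, relates to transcript levels at a locus with many alternative promoters.

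The cells were v6.5 male mESCs, and polyA RNA was sequenced from 5 conditions with 3 libraries each. Wild-type siGLO, Stag1-/- siGLO and Stag2-/- siGLO cells received the siGLO transfection control, and wild-type siStag1 and Stag2-/- siStag1 cells received an siRNA against Stag1. All wells were transfected at 50 nM and harvested after 48 h. Each knockout genotype was a single CRISPR clone, so clone and genotype cannot be told apart. The study describes the libraries of a genotype as biological replicates of that clone, so the p-values measure the spread between replicates of a clone and not between clones.

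Totals on genes were 14982560 to 19070126 counts per library, of which the clustered protocadherins took 829 to 1527. Values below are normalized counts, that is, read counts rescaled by TMM to 1 common depth of 17373740 counts. Stag2 fell from 2324 to 2330 normalized counts in wild-type siGLO cells to between 662 and 738 in Stag2-/- siGLO cells and between 849 and 939 in Stag2-/- siStag1 cells. Stag1 was at 2008 to 2283 in wild-type siGLO cells, 352 to 516 in wild-type siStag1 cells and 628 to 779.6 in Stag2-/- siStag1 cells. The Stag1-/- clone carries its lesion within the gene and held 1822 to 2364 normalized counts of Stag1, overlapping wild-type siGLO cells, so a count over the whole gene does not check this label. All 12 embryonic stem cell markers examined, among them Pou5f1, Sox2 and Nanog, were detected in every condition.

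In the GENCODE M21 annotation of mm10 the 3 clusters lie in tandem on the plus strand of chromosome 18, alpha at 36930184 to 37187661, beta at 37264938 to 37524479 and gamma at 37661793 to 37841873. Each alpha or gamma transcript joins its own first exon to 3′ exons common to the cluster, whereas beta transcripts come from separate genes. Exonic bases shared with no other counted gene amounted to 45.1 to 51.4% of an alpha gene and 33.2 to 72.2% of a gamma gene, while 20 of 22 beta genes shared none. How reads in the common exons were assigned is not given in the sources used here, and values of single alpha and gamma isoforms, per kilobase values included, depend on that rule. The annotated ends of the neighbors Pcdhb21 and Pcdhb22 overlap, leaving 90.3% and 93.1% of their exonic bases unshared, and their counts are uncertain for that reason.

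Most clustered protocadherin counts in wild-type siGLO cells came from the gamma cluster. Of 2884 counts summed over the 3 wild-type siGLO libraries, 2827 fell on gamma, 40 on beta and 17 on alpha genes. Per kilobase of unshared exon, the constitutively used C-type isoform Pcdhgc3 stood highest at 83.3 ± 16.5 normalized counts (SD, n = 3), followed by Pcdhga11 at 42.6 ± 8.05 and Pcdhgb8 at 22.6 ± 4.18. These 3 genes did not overlap one another across the wild-type siGLO libraries, whereas Pcdhgb8 overlapped the next gene, Pcdhga4, at 17.7 ± 2.14. Pcdhga6 was the lowest gamma gene at 0.87 ± 0.566 per kilobase.

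The low level of alpha and beta genes limited what passed the filter. A filter on low counts left 23 of 58 members, namely 21 of 22 gamma genes, Pcdhb2 and Pcdhb22 of 22 beta genes, and none of 14 alpha genes. Pcdhb2 and Pcdhb22 would not have passed this filter without their counts in Stag2-/- siStag1 cells, so the filter favored a difference there. They are left out of the counts of members called in filtered fits below, which cover the 21 gamma genes. Counts from the fit without the filter cover all 3 clusters and include them. Pcdha4 and Pcdhb9 had no count in any of the 15 libraries. A count of 0 in a library allows up to 3 counts, equal to 0.157 to 0.2 CPM here, and covers counting error only.

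**Figure D1:**
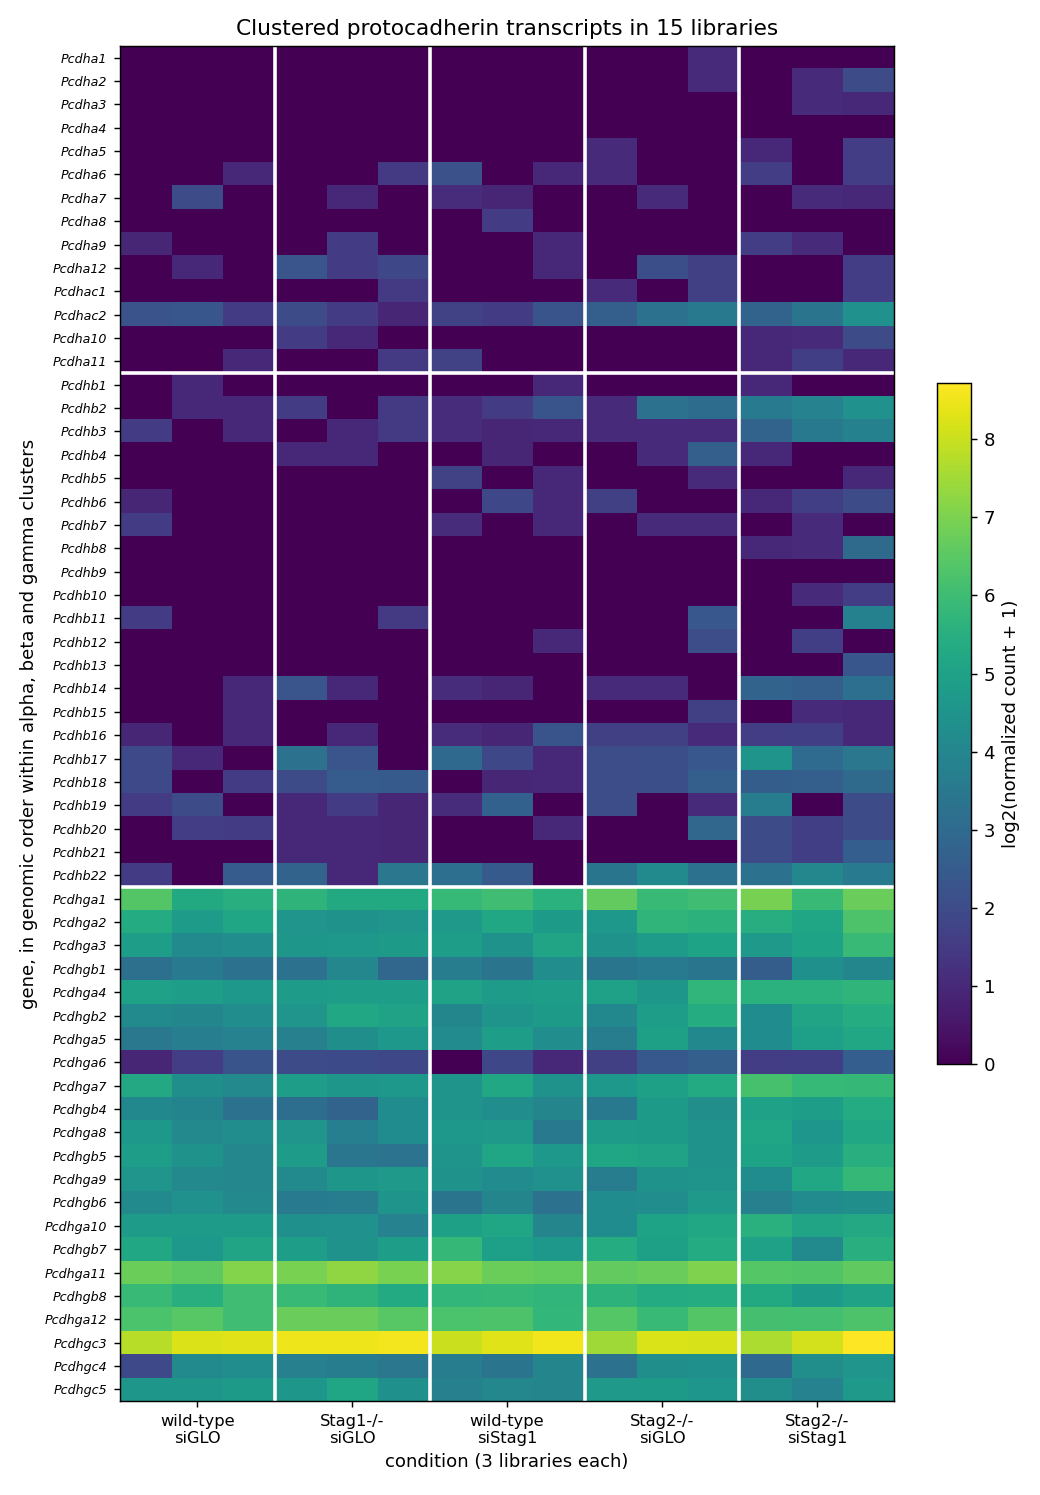
Heatmap of log2(normalized count + 1) for 58 clustered protocadherin genes (y axis, in genomic order within the alpha, beta and gamma clusters, with Pcdha10 and Pcdha11 placed last in alpha because their symbols do not mark a single locus in M21) in 15 libraries (x axis, 3 per condition, replicates 1 to 3 from left to right). Gamma genes were detected in all conditions, and counts on beta genes appear in 14 to 17 of 22 genes in Stag2-/- siStag1 libraries against 5 to 9 in wild-type siGLO libraries.

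The summed counts of each cluster moved to different extents between conditions. The beta cluster summed to 16.8, 8.12 and 13.5 normalized counts in wild-type siGLO replicates 1 to 3, to 26.4, 38.7 and 51.6 in Stag2-/- siGLO cells and to 81.6, 71.6 and 113 in Stag2-/- siStag1 cells. Every Stag2-/- siStag1 library lay above every Stag2-/- siGLO library, and every Stag2-/- siGLO library lay above every wild-type siGLO library. The mean beta sum was 6.93 times the wild-type siGLO mean in Stag2-/- siStag1 cells, 3.04 times in Stag2-/- siGLO cells, 1.76 times in Stag1-/- siGLO cells and 1.64 times in wild-type siStag1 cells. These are descriptions with no test, and in a bulk sample more cells that use a gene and more RNA per cell cannot be told apart.

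The alpha cluster, whose isoforms are the most thinly counted, summed to 4.67, 8.12 and 3.86 normalized counts in wild-type siGLO cells and to 12.8, 16.6 and 37.3 in Stag2-/- siStag1 cells. The 2 groups did not overlap, but replicate 3 of Stag2-/- siStag1 alone lifted the ratio of means from 2.65 to 4.01. The gamma cluster summed to 913, 884 and 945 normalized counts in wild-type siGLO cells and to 972, 979.9 and 1391 in Stag2-/- siStag1 cells. Here too replicate 3 of Stag2-/- siStag1 stood apart, and the ratio of gamma means was 1.22 with it and 1.07 without it. Gamma sums in Stag1-/- siGLO cells, at 1000 to 1031, were all above those of wild-type siGLO cells, with a ratio of means of 1.11.

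**Figure D2:**
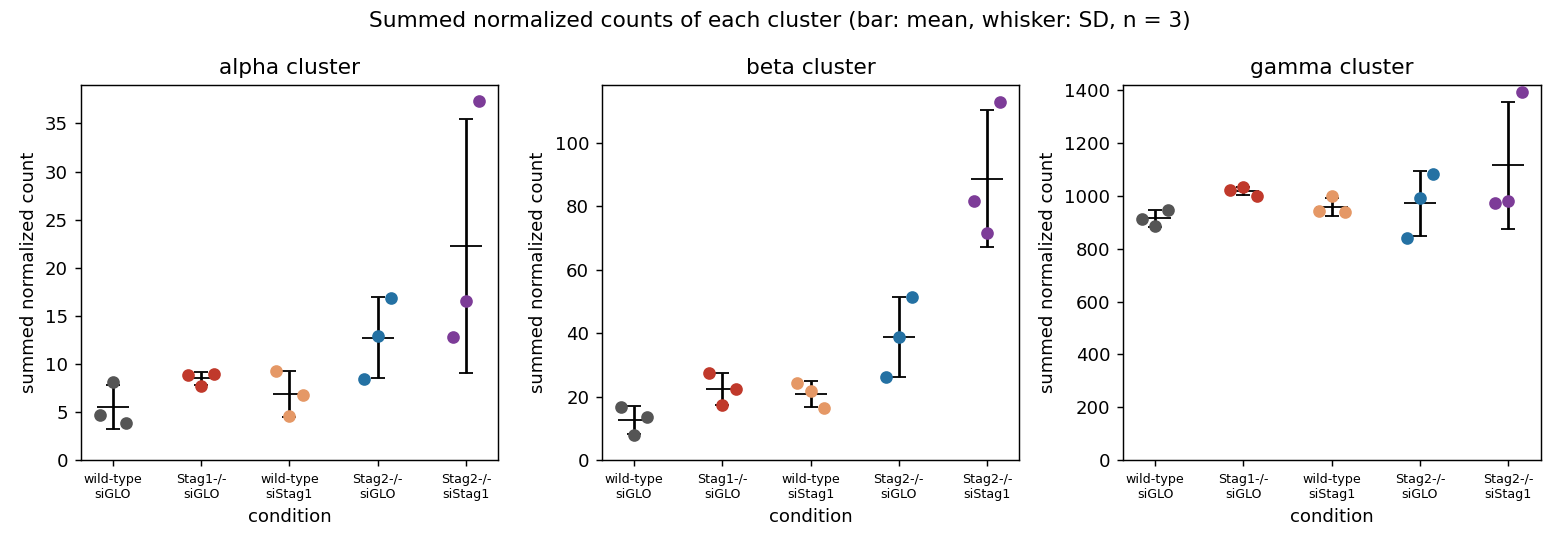
Summed normalized counts (y axis, from 0) of the alpha, beta and gamma clusters in each condition (x axis), with a point per library, a bar at the mean and whiskers for the SD (n = 3). Beta sums in Stag2-/- siStag1 cells, 71.6 to 113, lie above all other libraries, while gamma sums overlap between most conditions and replicate 3 of Stag2-/- siStag1 is highest at 1391.

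Of the 2 beta genes that passed the filter, Pcdhb2 had the larger fold change. Its normalized counts were 0, 1.01 and 0.966 in wild-type siGLO cells, 1.06, 8.6 and 7.38 in Stag2-/- siGLO cells and 10.8, 13.5 and 20.2 in Stag2-/- siStag1 cells. The Stag2-/- siStag1 libraries were all above those of the other 4 conditions. Over 3 libraries each, 44 raw counts in Stag2-/- siStag1 against 2 in wild-type siGLO cells gave a ratio of 22.9 with a 95% counting interval of 5.97 to 195. Because the filter had selected it, Pcdhb2 was read from the fit with no filter on low counts, in which it was higher in Stag2-/- siStag1 cells (log2 fold change 4.26, adjusted p = 0.00106, edgeR quasi-likelihood test) and in Stag2-/- siGLO cells (2.91, adjusted p = 0.0546). Without the filter, the first was called in all 6 fits that left out 1 library, and its adjusted p was between 0.000844 and 0.0074 over those fits and DESeq2. The second was not called in 5 of 6 such fits, the one without Stag2-/- siGLO replicate 1 excepted, with adjusted p of 0.109 to 0.155 without a wild-type siGLO library and of 0.189 and 0.14 without Stag2-/- siGLO replicates 2 and 3, in a range of 0.0177 to 0.189.

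Pcdhb22, the last gene of the beta cluster, held 1.87, 0 and 4.83 normalized counts in wild-type siGLO cells, 9.5, 17.2 and 8.43 in Stag2-/- siGLO cells and 8.85, 15.6 and 11.1 in Stag2-/- siStag1 cells. Both Stag2-/- conditions lay above wild-type siGLO cells in all libraries and overlapped each other. In the fit with no filter it was higher by a log2 fold change of 2.32 in Stag2-/- siGLO cells (adjusted p = 0.08) and of 2.31 in Stag2-/- siStag1 cells (adjusted p = 0.0525). Each difference was not called in 3 of 6 fits that left out 1 library, also without the filter. For Stag2-/- siGLO cells the libraries were wild-type siGLO replicates 1 (adjusted p = 0.165) and 2 (0.26) and Stag2-/- siGLO replicate 2 (0.246), within a range of 0.058 to 0.26. For Stag2-/- siStag1 cells they were wild-type siGLO replicates 1 (0.125) and 2 (0.185) and Stag2-/- siStag1 replicate 2 (0.144), within a range of 0.0317 to 0.185.

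The other beta genes were below the filter and were tested by edgeR without it, and by DESeq2 as an alternative. In the edgeR fit without the filter 56 members had a count, and against wild-type siGLO cells 15 were higher and 1 was lower in Stag2-/- siStag1 cells, where 16.3% of all genes were higher and 16.1% lower (32.3% in either direction). Pcdhgb2, called with the filter, was not called in this fit (adjusted p = 0.119). The 6 members added by this fit were Pcdhb3, Pcdhb8, Pcdhb14, Pcdhb17, Pcdhb21 and Pcdhac2. Pcdhb3 had 6, 10 and 13 raw counts in Stag2-/- siStag1 cells and 2, 0 and 1 in wild-type siGLO cells, a ratio of 10.1 with a counting interval of 3.12 to 51.6 (adjusted p = 0.00817 without the filter). Pcdhb14 had 6, 5 and 8 raw counts against 0, 0 and 1, a ratio of 19.8 with an interval of 3.14 to 822 (adjusted p = 0.018). For both genes every Stag2-/- siStag1 library was above every wild-type siGLO library. Pcdhb21 and Pcdhb8 were at 0 in all wild-type siGLO libraries and had 10 and 9 raw counts in Stag2-/- siStag1 cells, at least 3.47-fold and at least 3.12-fold higher against a floor of 3 counts over the group. Of the 9 counts of Pcdhb8, 7 came from replicate 3, and its difference (adjusted p = 0.0797 without the filter) was not called without that library (0.341) or without any 1 wild-type siGLO library (0.152 to 0.163), in a range of 0.0595 to 0.341. DESeq2, which called 39.4% of all genes in this comparison, called Pcdhb3, Pcdhb14, Pcdhb17 and Pcdhac2 (adjusted p = 0.0177, 0.0328, 0.0133 and 0.0543) and gave no adjusted p for Pcdhb8 and Pcdhb21.

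The 2 alpha C-type isoforms, which sit nearest the common exons, were low throughout. Pcdhac2 held 3.73, 4.06 and 1.93 normalized counts in wild-type siGLO cells, 5.28, 8.6 and 10.5 in Stag2-/- siGLO cells and 5.9, 9.34 and 20.2 in Stag2-/- siStag1 cells. Neither Stag2-/- condition overlapped wild-type siGLO cells, and Pcdhac2 had the most raw counts of the alpha genes over all 15 libraries, at 82. Without the filter it was higher in Stag2-/- siStag1 cells by a log2 fold change of 1.81 (adjusted p = 0.0386), while the difference of 1.30 in Stag2-/- siGLO cells was not called (adjusted p = 0.214). The first difference was 1.19 (adjusted p = 0.277) without Stag2-/- siStag1 replicate 3 and 1.55 (0.141) without wild-type siGLO replicate 3, neither of which was called, in a range of adjusted p from 0.0191 to 0.277. Pcdhac1 was at 0 in all wild-type siGLO and wild-type siStag1 libraries and had 2 or 3 raw counts summed over each of the other conditions. The remaining alpha genes had at most 5 raw counts summed over any condition, except for Pcdha12, which had 4, 2 and 3 in Stag1-/- siGLO cells.

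In the gamma cluster 21 genes were tested, and 8 rose and 1 fell in Stag2-/- siStag1 cells against wild-type siGLO cells. Among all genes tested 22.6% were higher and 21.3% lower (43.9% in either direction) at an adjusted p under 0.1, and 18 of the 21 gamma genes would also pass the filter on wild-type siGLO cells alone. The median log2 fold change of the 21 gamma genes was 0.61, and that of all 14508 genes tested was 0.01. In 5 of 21 tested gamma genes every Stag2-/- siStag1 library lay above every wild-type siGLO library, as for 24.0% of all genes. These were Pcdhga4, Pcdhga5, Pcdhga7 and Pcdhgb4, which were called, and Pcdhga10, which was not. Without replicate 3 of Stag2-/- siStag1 the gamma calls were 3 higher (Pcdhga4, Pcdhga7 and Pcdhgb4) and 1 lower (Pcdhgb8). Without wild-type siGLO replicate 2 they were 4 higher and 1 lower, and without wild-type siGLO replicate 3 they were 3 higher and 1 lower. In the order given, these fits called 5445 of 14674, 5166 of 14733 and 5448 of 14712 genes.

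Pcdhga7 and Pcdhgb4, variable isoforms that are neighbors in the middle of the cluster, showed the clearest rise. Pcdhga7 held 37.3, 19.3 and 16.4 normalized counts in wild-type siGLO cells and 71.8, 56.1 and 55.5 in Stag2-/- siStag1 cells. Pcdhgb4 held 15.9, 14.2 and 8.69 in wild-type siGLO cells and 30.5, 28 and 40.4 in Stag2-/- siStag1 cells. For both genes all 3 Stag2-/- siStag1 libraries were above all libraries of the other 4 conditions. Pcdhga7 rose by a log2 fold change of 1.32 ± 0.32 (adjusted p = 0.0045, 0.00107 to 0.0273 over the alternatives) and Pcdhgb4 by 1.34 ± 0.42 (adjusted p = 0.0198, 0.0158 to 0.0831). Neither call was lost when any single library was left out.

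Pcdhga4 and Pcdhga5, variable isoforms closer to the 5′ end of the cluster, also rose. Pcdhga4 was at 30.8, 28.4 and 24.1 normalized counts in wild-type siGLO cells and at 46.2, 46.7 and 51.5 in Stag2-/- siStag1 cells. Pcdhga5 was at 10.3, 12.2 and 13.5 in wild-type siGLO cells and at 17.7, 29.1 and 35.3 in Stag2-/- siStag1 cells. The groups did not overlap for either gene. The log2 fold changes were 0.79 ± 0.28 for Pcdhga4 (adjusted p = 0.0353) and 1.18 ± 0.41 for Pcdhga5 (adjusted p = 0.0345). The Pcdhga4 call was lost without wild-type siGLO replicate 3 (adjusted p = 0.114, range over the alternatives 0.0261 to 0.114) and the Pcdhga5 call without Stag2-/- siStag1 replicate 3 (0.132, range 0.012 to 0.132).

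Pcdhga1, Pcdhga3, Pcdhgb2 and Pcdhga9 rose with overlapping groups. Pcdhga1, the first gene of the cluster, was at 83, 38.6 and 44.4 normalized counts in wild-type siGLO cells and at 120.0, 59.2 and 104 in Stag2-/- siStag1 cells (log2 fold change 0.77 ± 0.32, adjusted p = 0.0701). Pcdhga3 was at 28.9, 17.2 and 18.4 against 25.6, 32.2 and 57.5 (0.83 ± 0.34, adjusted p = 0.0664). In both genes wild-type siGLO replicate 1 was the highest of its group and reached into the Stag2-/- siStag1 range. Pcdhgb2 was at 16.8, 15.2 and 18.4 against 17.7, 33.2 and 41.4 (0.87 ± 0.39, adjusted p = 0.0949). Pcdhga9 was at 22.4, 16.2 and 15.5 against 17.7, 36.3 and 54.5 (1.00 ± 0.38, adjusted p = 0.0525). In both genes Stag2-/- siStag1 replicate 1 lay within the wild-type siGLO range.

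None of these 4 calls held in every fit that left out 1 library. For Pcdhga1 the call was lost without wild-type siGLO replicates 2 (adjusted p = 0.247) or 3 (0.206) and without Stag2-/- siStag1 replicates 1 (0.226) or 3 (0.163), in a range of 0.0122 to 0.247 over the alternatives. For Pcdhga3 it was lost without wild-type siGLO replicates 2 (0.202) or 3 (0.18) and Stag2-/- siStag1 replicate 3 (0.385), in a range of 0.0274 to 0.385. For Pcdhga9 it was lost without wild-type siGLO replicates 2 (0.141) or 3 (0.144) and Stag2-/- siStag1 replicates 2 (0.102) or 3 (0.298), in a range of 0.00743 to 0.298. The Pcdhgb2 call was the least stable and was kept only without Stag2-/- siStag1 replicate 1, with 0.164, 0.211 and 0.142 when wild-type siGLO replicates 1 to 3 were left out and 0.192 and 0.323 without Stag2-/- siStag1 replicates 2 and 3 (range 0.0305 to 0.323).

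Pcdhgb8, a variable isoform near the 3′ end of the gamma array, was the member that fell. It held 59.7, 44.6 and 64.7 normalized counts in wild-type siGLO cells, 48.6, 39.8 and 41.1 in Stag2-/- siGLO cells and 38.4, 26 and 31.3 in Stag2-/- siStag1 cells. All Stag2-/- siStag1 libraries were below all wild-type siGLO libraries, as for 23.3% of genes, and also below all libraries of the remaining 3 conditions. The log2 fold change was -0.82 ± 0.24 (adjusted p = 0.0146), and the call held in all 6 fits that left out 1 library, with 0.00801 to 0.0664 over the alternatives.

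**Figure D3:**
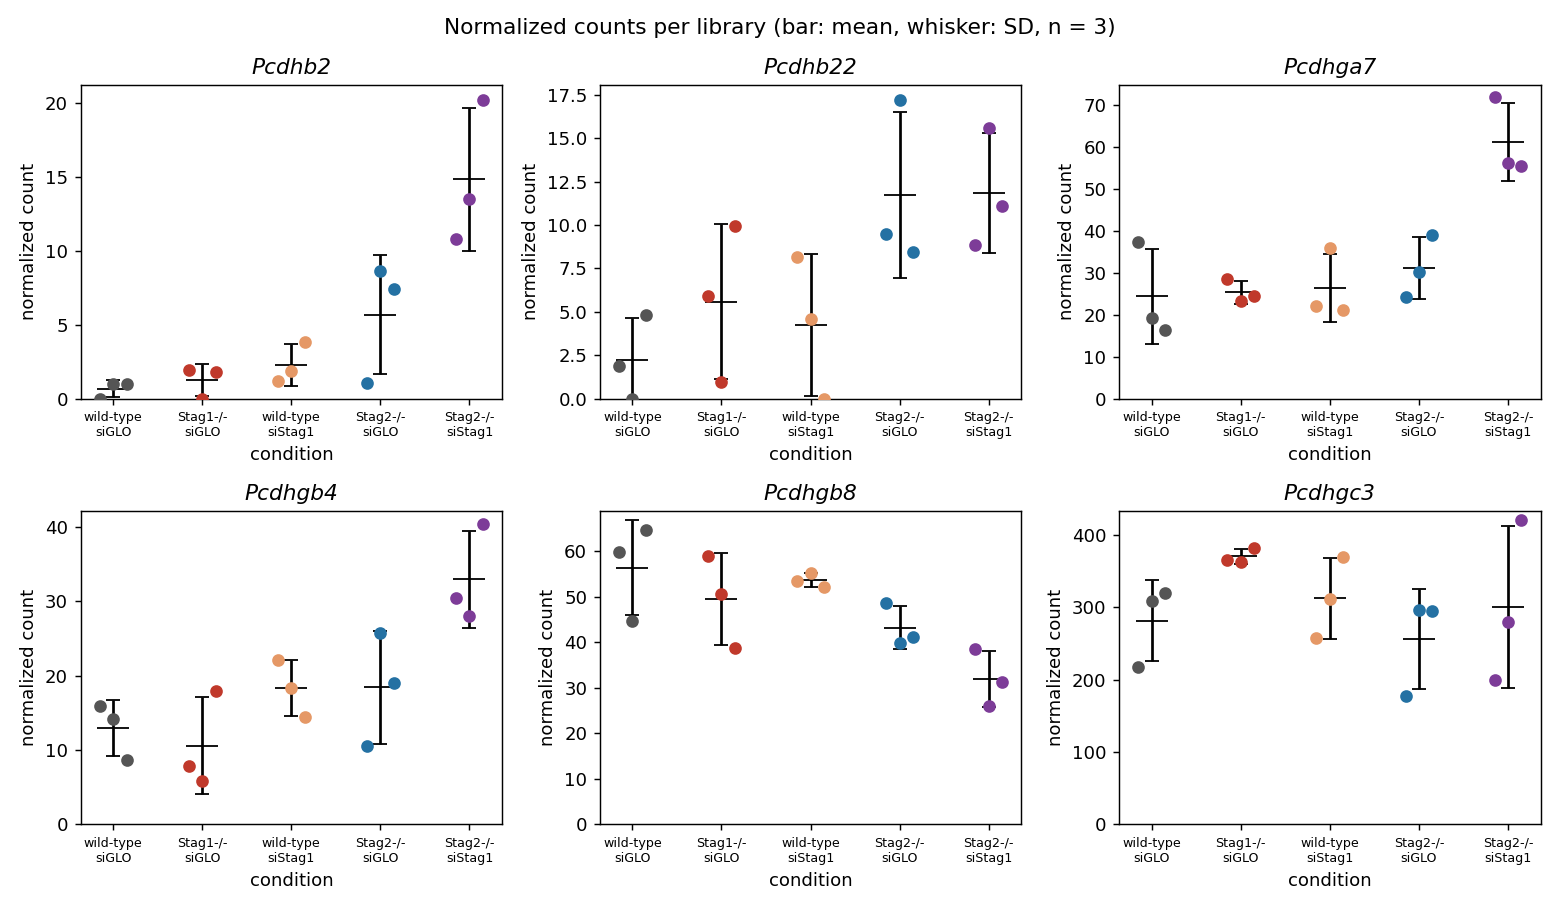
Normalized counts (y axis, from 0) of 6 clustered protocadherins in each condition (x axis), with a point per library, a bar at the mean and whiskers for the SD (n = 3). Pcdhb2, Pcdhga7 and Pcdhgb4 are highest and Pcdhgb8 is lowest in all 3 Stag2-/- siStag1 libraries, Pcdhb22 is above wild-type siGLO cells in every library of both Stag2-/- conditions, and Pcdhgc3 spreads from 199.7 to 421 in Stag2-/- siStag1 cells.

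The 3 gamma C-type isoforms, which lie at the 3′ end of the cluster, were not called in Stag2-/- siStag1 cells. Pcdhgc3 held 217, 308 and 319 normalized counts in wild-type siGLO cells and 199.7, 279 and 421 in Stag2-/- siStag1 cells (log2 fold change 0.09 ± 0.24, adjusted p = 0.798). Its sign turned to -0.07 without wild-type siGLO replicate 1 and to -0.23 without Stag2-/- siStag1 replicate 3. Pcdhgc4 was at 2.8, 17.2 and 18.4 against 6.89, 18.7 and 22.2 (0.32 ± 0.55, adjusted p = 0.684), and replicate 1 was the lowest in both groups. Its log2 fold change was -0.17 without wild-type siGLO replicate 1. Pcdhgc5 was at 23.3, 23.3 and 26.1 against 18.7, 13.5 and 25.2 (-0.34 ± 0.31, adjusted p = 0.416). All 3 genes overlapped between the groups.

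The gamma genes that rose lay mostly in the 5′ part of the cluster. All 10 tested genes among the first 11 in genomic order had a positive log2 fold change in Stag2-/- siStag1 cells, with a median of 0.81 and 7 called higher. Of all genes 22.6% were higher and 21.3% lower. Of the last 11 genes 5 were positive and 6 negative, with a median of -0.02, and 1 was called higher (Pcdhga9) and 1 lower (Pcdhgb8). Against wild-type siStag1 cells the 2 parts lay closer. The first 11 genes had a median of 0.69 with 10 of 10 positive, 4 of them called higher. The last 11 had a median of 0.35 with 7 positive and 4 negative, 1 called higher and 1 lower. Of all genes 19.4% were higher and 18.1% lower in that comparison. In Stag2-/- siGLO against wild-type siGLO cells 10 of 10 tested genes of the first 11 were also positive (median 0.354, against 0.031 in the last 11). In wild-type siStag1 cells 9 of 10 were positive (0.227 against -0.053) and in Stag1-/- siGLO cells 6 of 10 (0.038 against -0.152). The comparisons with wild-type siGLO cells share the same control libraries. The split into 11 and 11 genes was made after the values had been seen, so no test was applied to it.

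Summed by library, the first 11 gamma genes held 297, 201 and 209 normalized counts in wild-type siGLO cells and 413, 363 and 519 in Stag2-/- siStag1 cells. The last 11 held 616, 683 and 736 in wild-type siGLO cells and 559, 617 and 872 in Stag2-/- siStag1 cells. The first sums separated the groups and the second overlapped. Within each library the ratio of the first to the second sum was 0.482, 0.294 and 0.283 in wild-type siGLO cells, 0.485, 0.465 and 0.475 in Stag2-/- siGLO cells and 0.739, 0.589 and 0.595 in Stag2-/- siStag1 cells. It was 0.283 to 0.317 in Stag1-/- siGLO cells and 0.35 to 0.412 in wild-type siStag1 cells. Stag2-/- siStag1 libraries stood above all others, while wild-type siGLO replicate 1 lay inside the narrow Stag2-/- siGLO range and apart from its own group. The mean ratio in Stag2-/- siStag1 cells was 1.82 times that of wild-type siGLO cells, and 2.22 times without wild-type siGLO replicate 1.

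**Figure D4:**
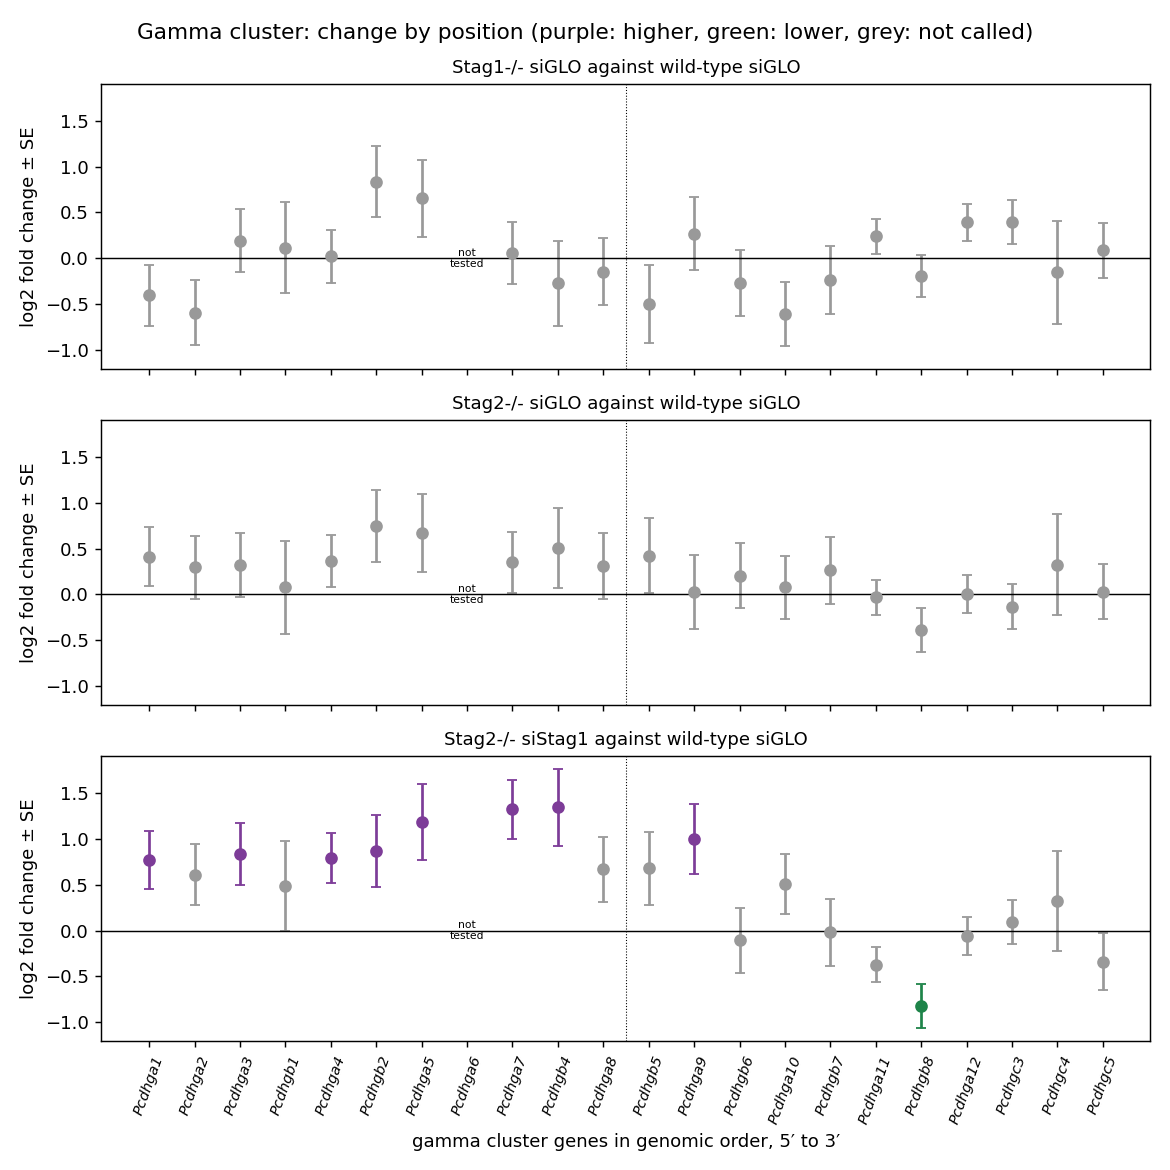
Log2 fold change ± SE against wild-type siGLO cells (y axis, edgeR) of the gamma genes in genomic order from 5′ to 3′ (x axis), with 1 panel each for Stag1-/- siGLO, for Stag2-/- siGLO and for Stag2-/- siStag1 cells, which share the same 3 control libraries. The dotted line divides the first 11 genes from the last 11. In Stag2-/- siStag1 cells all 10 tested genes to its left are above 0, 7 of them called higher (purple), and Pcdhgb8 to its right is called lower (green). Of all genes 22.6% were higher and 21.3% lower in these cells.

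Loss of STAG2 alone addressed whether the family responds while STAG1 is present. In Stag2-/- siGLO cells 0 of 21 tested gamma genes were called by edgeR, where 13.9% of all genes were higher and 14.4% lower (28.3% in either direction). None had an unadjusted p under 0.05, and DESeq2, which called 4273 of 16092 genes, called 0 of the gamma genes. No gamma gene was separated from wild-type siGLO cells, whereas 17.1% of all genes were higher and 18.5% lower without overlap. The gamma median log2 fold change was 0.29 against 0.01 over all genes. The largest gamma value was that of Pcdhgb2 at 0.75 ± 0.39 (adjusted p = 0.193), with normalized counts of 15.8, 28 and 41.1 that overlapped wild-type siGLO cells. Without wild-type siGLO replicate 1 Pcdhga1 was called higher, and without Stag2-/- siGLO replicate 1 Pcdhgb2 was called higher. These fits called 3985 of 14704 and 3798 of 14725 genes. The values of Pcdhb2 and Pcdhb22 in this comparison are given above, and DESeq2 called both higher (adjusted p = 0.0681 and 0.0651).

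Loss of STAG2 was also measured under siStag1, on other libraries, by Stag2-/- siStag1 against wild-type siStag1 cells. Residual Stag1, given above, was called higher in Stag2-/- siStag1 cells here, so this comparison differs in Stag1 as well as in Stag2. Of 21 tested gamma genes 5 were higher and 1 was lower, where 19.4% of all genes were higher and 18.1% lower (37.5% in either direction). Those higher were Pcdhga7 (log2 fold change 1.20, adjusted p = 0.0101), Pcdhga4, Pcdhga1, Pcdhga2 and Pcdhga9, the last 4 with adjusted p between 0.0562 and 0.092, and Pcdhgb8 was lower (-0.75, adjusted p = 0.0292). Pcdhga7 was called in all 6 fits that left out 1 library, and it was the only gamma gene called higher without wild-type siStag1 replicate 3 or without Stag2-/- siStag1 replicate 3. Over all genes the 6 fits called 4237 to 5324. Without wild-type siStag1 replicates 1 or 2 the count was 2 higher, and without Stag2-/- siStag1 replicate 2 it was 3 higher and Pcdhgb8 was not called. The edgeR fit with no filter called 5325 of 19494 genes, and 10 of 56 members were higher and 1 lower. Outside gamma those higher were Pcdhb2 (log2 fold change 2.58, adjusted p = 0.0151), Pcdhb3 (3.11, 0.0121), Pcdhb8, Pcdhb14, Pcdhb18 (2.87, 0.0316), Pcdhb21 and Pcdhac2. Of these only Pcdhb2 and Pcdhb3 held in all 6 fits that left out 1 library, and Pcdhb18 was not followed there. Across the 21 tested gamma genes the 2 measures of STAG2 loss, which have no library in common, had Pearson's r of 0.587 and Spearman's rho of 0.474, and 20 genes had the same sign in both. Over all 14508 genes r was 0.821, with 11626 of the same sign. Genes are not independent replicates, and gamma genes share exons.

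Loss of STAG1 was followed by few calls. In Stag1-/- siGLO cells 0 of 21 gamma genes were called by edgeR, where 10.1% of all genes were higher and 9.93% lower (20.0% in either direction). Pcdhgb2 alone had an unadjusted p under 0.05, and DESeq2, which called 19.4% of genes, also called 0 members. Same-numbered libraries of these conditions deviated together, and with the replicate number as a block 2 members were higher, where 15.3% of genes were higher and 15.3% lower (30.6% in either direction), namely Pcdhgb2 (log2 fold change 0.81, adjusted p = 0.066) and Pcdhgc3 (0.42, adjusted p = 0.0543). Pcdhgc3 held 365, 363 and 382 normalized counts in Stag1-/- siGLO cells, above the 217 to 319 of wild-type siGLO cells in every library. Pcdhgb2 held 22.6, 35.9 and 31.6 there, also above the wild-type siGLO libraries. Together with Pcdhga12 these were the 3 gamma genes higher without overlap, against 15.7% of all genes, and Pcdhga2 and Pcdhga10 were lower without overlap, against 15.9%. Without the block, leaving out Stag1-/- siGLO replicate 1 gave 1 call, Pcdhgb5, which was lower, where 1965 of 14721 genes were called.

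In wild-type siStag1 cells, in which Stag1 was depleted for 48 h, 0 of 21 gamma genes were called by edgeR, where 0.103% of all genes were higher and 0.145% lower (0.248% in either direction). DESeq2, which called 0.936% of genes, likewise called 0 members, and 1 member had an unadjusted p under 0.05, Pcdhgc5. It held 12.8, 15.6 and 14.5 normalized counts, below the 23.3 to 26.1 of wild-type siGLO cells in every library (log2 fold change -0.75 ± 0.32, adjusted p = 0.701). Pcdhb2 at 1.16, 1.84 and 3.86 was above wild-type siGLO cells in every library but rested on 7 raw counts against 2.

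Depleting Stag1 in Stag2-/- cells, compared with Stag2-/- siGLO cells, gave 0 calls among 21 gamma genes with edgeR, where 2.98% of all genes were higher and 3.39% lower (6.37% in either direction), and 2 gamma genes had an unadjusted p under 0.05. With the replicate block Pcdhga7 was called (log2 fold change 0.95, adjusted p = 0.0651), where 7.22% of genes were higher and 6.91% lower (14.1% in either direction), and DESeq2, which called 8.18% of genes, also called this gene. Its normalized counts were 24.3, 30.1 and 39 in Stag2-/- siGLO cells and 71.8, 56.1 and 55.5 in Stag2-/- siStag1 cells, without overlap. Without the block, leaving out Stag2-/- siStag1 replicate 1 gave 1 gamma call, Pcdhga9, where 1484 of 14701 genes were called. The edgeR fit with no filter called 848 of 19494 genes. Among 56 members it called only Pcdhb3, which was higher (log2 fold change 3.04, adjusted p = 0.062). Its raw counts were 1, 1 and 1 in Stag2-/- siGLO cells and 6, 10 and 13 in Stag2-/- siStag1 cells. That call was lost in 5 of 6 fits that left out 1 library. The difference between the siStag1 effects in Stag2-/- and wild-type cells was tested directly and called 0 members, where 0.0207% of all genes were higher and 0.138% lower (0.159% in either direction). No member had an unadjusted p under 0.05, and DESeq2, which called 0.718% of genes, called 0 members. Residual Stag1 was called higher in Stag2-/- siStag1 than in wild-type siStag1 cells, so the level left by the siRNA differed between the genotypes.

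The knockouts differed directly in 2 of 21 gamma genes, where 12.7% of all genes were higher and 12.9% lower (25.7% in either direction) in Stag1-/- siGLO than in Stag2-/- siGLO cells. Pcdhga1 was at 50.1, 37.9 and 37.9 normalized counts in Stag1-/- siGLO cells and at 98.2, 58.1 and 65.3 in Stag2-/- siGLO cells. Pcdhga2, the next gene, was at 22.6, 21.4 and 22.6 against 24.3, 51.6 and 47.4. Both were lower in every Stag1-/- siGLO library, by -0.82 ± 0.33 (adjusted p = 0.0954) and -0.89 ± 0.35 (adjusted p = 0.0923) on the log2 scale. Each call was lost in 5 of 6 fits that left out 1 library, and the count of gamma calls was 0 without Stag1-/- siGLO replicate 2 or Stag2-/- siGLO replicate 3, and 1 without Stag1-/- siGLO replicates 1 or 3 or Stag2-/- siGLO replicate 2. Over all genes these fits called 2539 to 3522. With the replicate block 4 gamma genes were called, where 18.1% of genes were higher and 19.2% lower (37.3% in either direction). These were Pcdhga1, Pcdhga2 and Pcdhgb5 lower and Pcdhgc3 higher in Stag1-/- siGLO cells, the last by 0.57 (adjusted p = 0.0112). The beta gene Pcdhb2 was also called lower with the block (-2.04, adjusted p = 0.0683). The edgeR fit with no filter called 3367 of 19494 genes, and of 56 members only Pcdhac2, which was lower (-2.01, adjusted p = 0.0689). That call was lost in 4 of 6 fits that left out 1 library. DESeq2 also called it (adjusted p = 0.085), as it did 3851 of 16092 genes.

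Non-clustered protocadherins, adhesion proteins encoded outside the 3 clusters, were followed as a separate list of 12 genes of which 5 passed the filter. Of these Pcdh7 and Pcdh8 passed it only because of their counts in the Stag2-/- conditions, so no count of the list is set against the share of all genes. The summed list was at 238 to 239.8 normalized counts in wild-type siGLO cells and at 894 to 1407 in Stag2-/- siStag1 cells. Pcdh18 was at 6.53, 4.06 and 10.6 in wild-type siGLO cells and at 72.8, 216 and 349 in Stag2-/- siStag1 cells (log2 fold change 4.88 ± 0.69, adjusted p = 5.49e-05). Pcdh1 was at 166, 176 and 159 against 638, 639 and 757 (2.02 ± 0.19, adjusted p = 9.28e-07). Pcdh19 rose in Stag2-/- siStag1 cells by 2.04 ± 0.36 (adjusted p = 0.000417). Pcdh1, Pcdh18 and Pcdh19 also rose in Stag2-/- siGLO cells, by 1.23 ± 0.19, 3.88 ± 0.70 and 1.25 ± 0.37 (adjusted p = 0.000328, 0.0012 and 0.0255), and none of the 3 passed the test in Stag1-/- siGLO cells.

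Of 21 tested regulators of the clusters, 5 rose and 4 fell in Stag2-/- siStag1 cells, a share close to the 22.6% higher and 21.3% lower of all genes, and the 4 include the perturbed genes Stag1 and Stag2. Dnmt3b, the methyltransferase that acts on variable protocadherin promoters, was at 5779, 5014 and 4204 normalized counts in wild-type siGLO cells and at 21678, 17799 and 15596 in Stag2-/- siStag1 cells (log2 fold change 1.88 ± 0.15, adjusted p = 2.03e-07). It also rose in Stag2-/- siGLO (1.52 ± 0.15) and Stag1-/- siGLO cells (0.89 ± 0.15). Ehmt1, a histone methyltransferase, rose by 0.72 ± 0.10 (adjusted p = 4.69e-05). Ctcf at 0.06 ± 0.09, the cohesin subunit gene Rad21 at -0.11 ± 0.07 and Smchd1, a silencer of the clusters, at 0.20 ± 0.11 on the log2 scale were not called. Their part in the protocadherin values was not tested.

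Among 14 tested genes next to or between the clusters, 2 rose in Stag2-/- siStag1 cells (against 22.6% of all genes, Zmat2 at 0.30 ± 0.10 and Arap3 at 0.67 ± 0.15 on the log2 scale) and none fell. Taf7, which lies between the beta and gamma clusters, was not called at 0.05 ± 0.11. Of the other 338 tested genes of chromosome 18, 24% were higher and 21.9% lower in Stag2-/- siStag1 cells, with a median log2 fold change of -0.004.

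Marker lists of cell states differed in whether their sums overlapped wild-type siGLO cells, and the shares of all genes called in Stag2-/- siStag1 cells were 22.6% higher and 21.3% lower. Of 12 embryonic stem cell markers 8 fell and 2 rose in Stag2-/- siStag1 cells, Esrrb the most significant at -2.64 ± 0.15 on the log2 scale, and their summed normalized counts were 128220 to 135779 in wild-type siGLO and 83530 to 105100 in Stag2-/- siStag1 cells. Of 13 tested neural markers Pax6 (3.48 ± 0.33) and Nes (1.74 ± 0.20) rose and Stmn2 fell, and the summed list overlapped at 6841 to 8186 and 6138 to 8908. The neuronal marker Dcx was at 0 in all wild-type siGLO libraries. All 6 primitive endoderm markers fell in each condition that carried a knockout. Of all genes 9.93% were lower in Stag1-/- siGLO and 14.4% in Stag2-/- siGLO cells. Their sum was 3875 to 4224 normalized counts in wild-type siGLO cells, 325 to 523 in Stag1-/- siGLO cells, 706 to 1132 in Stag2-/- siGLO cells and 839 to 1114 in Stag2-/- siStag1 cells. Of 5 tested mesoderm markers 1 rose and 2 fell and of 4 tested fibroblast markers 1 rose in Stag2-/- siStag1 cells. The mesoderm sum was 281 to 383 in wild-type siGLO and 155 to 185 in Stag2-/- siStag1 cells, and the fibroblast sum overlapped at 294 to 552 and 384 to 449. Their part in the protocadherin values was not tested.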

How the data were processed

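Raw read counts per gene, aligned by the authors to mm10 with STAR, were deposited for each library and used unchanged; the counting tool, annotation and strand setting are not given in the sources used here, so overlapping or antisense genes cannot be told apart. The files also hold lines for unmapped, multimapping, unassigned and ambiguous reads (379446 to 499487 ambiguous per library), which were left out. The submitters' notes also name DESeq2. The members and gene lists were chosen with earlier results of these data known. Members were read out of a fit over all genes, in R 4.3.3 with edgeR 4.0.16: low genes were removed with filterByExpr (minimum count of 10 at the median depth in as many libraries as a condition has, and 15 in total), libraries were scaled by TMM, and 8 contrasts among 5 condition means were tested over 15 libraries with glmQLFit and a two-sided glmQLFTest, with Benjamini-Hochberg adjustment over 14508 genes and a threshold of 0.1. Named members are those called in at least 1 contrast, the C-type genes and the highest of each cluster; of other lists, at most 3 genes with the smallest adjusted p, Stag1, Stag2, Ctcf, Rad21, Smchd1 and Dnmt3b are given, and Pcdhga12, Pcdhga10, Pcdhga11, Pcdhgb5, Pcdha12, Pcdh7, Pcdh8, Taf7, Dcx, Pou5f1, Sox2, Nanog and the alpha and beta genes below the filter were named after their values were seen. The SE is the log2 fold change divided by the square root of F. Intervals of count ratios are exact binomial at 95% and cover counting error only. Gene structures came from GENCODE M21 by symbol, with 56 of 58 members matched to a single locus. The replicate numbers in the labels pair libraries: over 11530 genes every same-numbered pair had a correlation of deviations above 0.1 in 5 of 7 pairwise contrasts. Within each condition no pair of libraries agreed within sampling noise (chi-square over degrees of freedom of 4.52 or more). Alternatives were DESeq2 1.42.0, other scalings, other filters, the compared libraries alone, a threshold of 0.05, the replicate number as a block, and fits without each library in turn. Pcdhb2, Pcdhb22 and members below the filter were read from a fit without it. The scripts were checked on simulated data.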

Additional observations from a re-analysis of the deposited data

Results flagged for a closer look

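Pcdhga1 and Pcdhga2, the first 2 genes of the gamma cluster, are listed because they were called in the direct test between Stag1-/- siGLO and Stag2-/- siGLO cells. They are 2 of 21 gamma genes tested, or 9.52%, where 25.7% of all genes were called and 12.9% were lower, so the share is below that of all genes, and each call was lost in 5 of 6 fits that left out 1 library. The log2 difference, Stag1-/- minus Stag2-/-, was -0.82 for Pcdhga1 and -0.89 for Pcdhga2. Against wild-type siGLO cells Pcdhga1 was at -0.40 ± 0.33 in Stag1-/- and 0.41 ± 0.32 in Stag2-/- cells, and Pcdhga2 at -0.59 ± 0.36 and 0.29 ± 0.34, none of which was called by edgeR. The direct difference had an adjusted p of 0.0272 to 0.311 for Pcdhga1 and 0.0289 to 0.268 for Pcdhga2 over the alternatives.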

How the results depend on the processing

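For 39 pairs of a gene and a contrast, 310 alternative values kept direction and side of the threshold, 117 lost the call, 1 gained it (Pcdhga2 in Stag2-/- siStag1 cells without replicate 2) and 3 changed sign, all uncalled: Pcdhgc3 (-0.07 and -0.23, in a range of -0.23 to 0.31 with a library left out) and Pcdhgc4 (-0.17, range -0.17 to 0.68). The cause was not tested. Of 21 gamma genes, the count called in Stag2-/- siStag1 against wild-type siGLO cells (9, where 43.9% of all genes were called) was 5 at an adjusted p under 0.05, 5 with only the libraries compared and 4 to 8 with a library left out. Over all genes 5804 of 14004 were called with only the libraries compared and 5166 to 6218 with a library left out. Fits with a library left out tested 14674 to 14734 genes. The share of all genes at 0.05 is not given here. Stag2-/- siGLO (0, against 28.3%) and Stag1-/- siGLO (0, against 20.0%) gave 0 to 1 with a library left out, where 2524 to 3985 and 1915 to 2748 genes were called. Stag2-/- siStag1 against Stag2-/- siGLO (0, against 6.37%) gave 1 with at least 10 counts in every library or with DESeq2, and 0 to 1 with a library left out. Over all genes those settings called 843 of 12439, 1192 of 14580 and 416 to 1484. Against wild-type siStag1 (6, against 37.5%) the count was 2 at 0.05 and 2 to 5 with a library left out, where 4237 to 5324 genes were called. The knockouts compared directly (2, against 25.7%) gave 0 at 0.05, 0 without the filter, 0 with only the libraries compared and 0 to 2 with a library left out. Over all genes the last 3 settings called 3367 of 19494, 2406 of 13782 and 2539 to 3522. Members read from the fit without a filter were refitted without each library in turn, an alternative chosen after seeing the data.

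The replicate block gave 2 for Stag1-/- siGLO, 1 for Stag2-/- siStag1 against Stag2-/- siGLO and 4 for the direct knockout comparison, and changed no other count by over 1.5 times. In that order the block called 4443, 2049 and 5416 of 14508 genes. In Stag2-/- siStag1 against wild-type siGLO and wild-type siStag1 cells 1 same-numbered pair each fell below the pairing limit (r of 0.045 and -0.094), and 5 and 2 of 6 libraries correlated best with their own number. The block gave 9 and 7 calls among the 21 gamma genes there, where it called 7792 and 6893 of 14508 genes.

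Without Pcdhac2 the alpha sum ratio was 2.87 in Stag1-/- siGLO and 1.82 in wild-type siStag1 cells, and without Pcdhgc3 the gamma ratio in Stag1-/- siGLO cells was 1.02; with a library left out the Stag1-/- siGLO ratios were 1.34 to 2 for alpha and 1.1 to 1.13 for gamma. The 5′ to 3′ gamma ratio, with alternatives chosen after seeing the data, was 1.55 when split after gene 8 and 1.65 to 2.22 with a library left out. At these depths 35 of 58 members, among them all alpha and 20 of 22 beta genes, were below the filter, and calls on them were made only without it or by DESeq2.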

Other observations

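Of 10 cytoplasmic partners of the clustered protocadherins, 3 rose and 2 fell in Stag2-/- siStag1 against wild-type siGLO cells by edgeR, where 22.6% of all genes were higher and 21.3% lower. Wasf1, a subunit of the WAVE actin regulator, rose by 0.45 ± 0.10 on the log2 scale (adjusted p = 0.00195), Cyfip1, another subunit of that complex, fell by 0.42 ± 0.09 (adjusted p = 0.00154), and Ret, a receptor tyrosine kinase, rose by 1.28 ± 0.30 (adjusted p = 0.00346). The summed list overlapped, at 16326 to 16908 normalized counts in wild-type siGLO and 15308 to 16731 in Stag2-/- siStag1 cells.

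Pcdhgc3 took 23.8, 34.9 and 33.7% of the gamma counts in wild-type siGLO replicates 1 to 3 and 20.5, 28.5 and 30.3% in Stag2-/- siStag1 replicates 1 to 3. Within wild-type siGLO, Stag2-/- siGLO and both siStag1 conditions replicate 1 had the lowest share, while the 3 Stag1-/- siGLO libraries lay between 35.2 and 38.2%.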
